A study of Mus musculus with 6 samples.

Results

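The sirtuins (Sirt1 to Sirt7) and the NAD salvage enzymes Nampt, Nmnat1 and Nmnat3 were examined by RNA-seq in freshly sorted muscle stem cells with and without deletion of Opa1. These 10 genes were picked by symbol from the 49652 genes with a count, and all 10 passed the filter on low counts that left 18832 genes for testing. None of the 10 transcripts passed the test of KO against WT. KO libraries came from mice of the Opa1/Pax7-CreERT2 design that were positive for Cre (n = 3 libraries), and WT libraries from mice of that design that were negative for Cre (n = 3 libraries). The driver is a tamoxifen-inducible Cre expressed from Pax7, so recombination is directed at the Pax7-expressing cells, and no Cre-positive control group was analysed here. All mice were 8 to 10 weeks old and uninjured, and all had tamoxifen by gavage for 5 days, with cells taken 3 days later. The sort of hindlimb muscle kept cells with alpha-7 integrin and VCAM1 and removed those with Sca1, CD45 or CD31.

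Sirtuins remove acyl groups from lysines of other proteins and split a molecule of NAD in each cycle, which releases nicotinamide. Nampt, the rate-limiting enzyme of salvage, turns nicotinamide into nicotinamide mononucleotide, and the Nmnat enzymes turn that into NAD. In mouse muscle stem cells SIRT1 and its NAD supply are known to tie metabolism to histone acetylation on leaving quiescence. OPA1, a GTPase that fuses the inner mitochondrial membrane, has been described as a substrate of the mitochondrial deacetylase SIRT3 in the heart.

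The promoters of Sirt1 and Nampt are shown because these genes had the largest positive log2 fold changes of the set and because Nampt transcription is known to follow the circadian clock in mice, through E-boxes. RefSeq promoters on GRCm38.p6, from 250 bases before the transcription start to 50 after it, matched all 10 genes, with 13 promoters, since some genes have more than 1. Capitals mark the E-box CACGTG, which is its own reverse complement, in Sirt1 and the GC box GGGCGG on either strand in Nampt.
Sirt1, chr10:63338986-63339285, minus strand: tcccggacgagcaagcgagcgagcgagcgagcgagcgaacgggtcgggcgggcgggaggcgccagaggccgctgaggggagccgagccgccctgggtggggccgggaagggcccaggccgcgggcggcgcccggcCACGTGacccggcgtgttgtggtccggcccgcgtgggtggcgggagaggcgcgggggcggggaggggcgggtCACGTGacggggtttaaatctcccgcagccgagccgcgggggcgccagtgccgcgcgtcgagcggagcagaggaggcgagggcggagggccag
Nampt, chr12:32820085-32820384, plus strand: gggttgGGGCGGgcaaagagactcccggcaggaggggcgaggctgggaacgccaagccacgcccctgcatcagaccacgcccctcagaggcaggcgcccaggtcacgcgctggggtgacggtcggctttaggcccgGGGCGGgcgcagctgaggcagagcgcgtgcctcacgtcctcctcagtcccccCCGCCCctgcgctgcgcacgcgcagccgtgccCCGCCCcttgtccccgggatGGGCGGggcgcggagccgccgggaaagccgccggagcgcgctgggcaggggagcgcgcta
The Sirt1 window held 2 E-boxes, beginning 115 and 43 bases before the start, and neither shared letters with a GC box. E-boxes were in 1 of the 13 member promoters, that of Sirt1, against 7.15% of all 32851 promoters. The Nampt window shown held no CACGTG. GC boxes were in 10 of the 13, or 9 of the 10 genes, against 35.7% of all promoters, and Sirt4 had none. The CCAAT box, searched as CCAAT on either strand, was in 5 of the 13, or 4 of the 10 genes, against 37.4% of all promoters. The Nmnat1 promoters overlap, so a site there can be counted more than once. The letters TATAAA on either strand were in 0 of the 13, against 13.6% of all promoters. These matches are letters in a window and not measured binding.

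Gene counts summed to between 41410136 and 56606886 a library. The members had from 441 reads (Sirt6) to 19230 reads (Sirt2) in a library, so spread between libraries and not counting error limits the precision. Levels are normalised read counts (CPM), which set each library's scaled total to the same size, after TMM scaling of the library sizes, and fold changes are log2, KO minus WT. These are bulk libraries, in which fewer cells with a transcript and less of it per cell cannot be told apart. Opa1 was lower on average in KO, at 17.5, 34.4 and 27.1 CPM in KO replicates 1 to 3, against 68.2, 31.4 and 68.8 CPM in WT replicates 1 to 3. The second WT library goes against its label here, with a value inside the range of the KO libraries, so it is named below as the library labelled WT replicate 2. For Opa1, KO minus WT on the log2 scale was -1.09 (SE 0.37, 95% interval -1.97 to -0.22), with an adjusted p of 1.000 in edgeR's quasi-likelihood test and p = 0.2 in an exact two-sided permutation test, where 0.1 is the smallest p possible. The unadjusted p of Opa1 was 0.0215 in edgeR and 0.00357 in DESeq2, where the adjusted p was 0.817. Summed over 6 muscle stem cell markers (Pax7, Myf5, Itga7, Vcam1, Calcr and Cdh15), levels were 3247 to 3281 CPM in KO and 3248 to 3685 CPM in WT. Of these Calcr, the calcitonin receptor, was lower in every KO library, at 178, 165 and 228 CPM in KO, against 273, 229 and 349 CPM in WT, and was not called (edgeR unadjusted p 0.0244, adjusted p 1.000). Of all genes tested, 3.12% were likewise lower in every KO library than in any WT library. The 6 stem cell markers had 3 positive and 3 negative log2 fold changes, and the groups overlapped for each but Calcr. The 6 leukocyte markers summed to 5.52 to 16.7 CPM in KO and 6.26 to 15.5 CPM in WT, with Ptprc, Adgre1 and Cd3e at 0 in some libraries. Endothelial markers summed to 94.3 to 143 CPM in KO and 106 to 151 CPM in WT, most of it Tek, and mature fibre markers to 141 to 356 CPM in KO and 126 to 471 CPM in WT. Fibro-adipogenic markers summed to 697 to 891 CPM in KO and 873 to 1351 CPM in WT, most of it Dpt. Over the 6 libraries Pdgfra averaged 1.49, Pi16 2.98, Ly6a 10.5, Col15a1 27.9 and Dcn 59.9 CPM. Smooth muscle and pericyte markers summed to 705 to 1009 CPM in KO and 728 to 1265 CPM in WT, most of it Acta2 and Notch3. The sums overlapped between the groups for each list, though single markers did not all do so. Notch3 was higher in every KO library, at 211, 297 and 217 CPM, against 193, 198 and 146 CPM in WT. Of all genes, 3.43% had KO wholly above WT. Col15a1 overlapped, with a log2 fold change of -1.12 (SE 0.47, edgeR unadjusted p 0.0476), and neither gene was called. What such cells added to the members' levels was not tested.

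With Benjamini-Hochberg adjustment, 0 of 18832 genes (0%) were called by edgeR's quasi-likelihood test, and 393 (2.09%) had an unadjusted p under 0.05. None of the 10 members was called, and none had an unadjusted p under 0.05. DESeq2 called 20 genes (0.106%), none of them a member, and 0 members had an unadjusted p under 0.05 there either, against 2.75% of all genes. Every member's KO and WT libraries overlapped, where 6.55% of all genes had groups that did not. Of the members 6 had a positive log2 fold change, against 51% of all genes, and 4 a negative one, with a median of 0.07 against 0.01 over all genes. The median absolute log2 fold change was 0.13 for the members and 0.20 for all genes. The 95% interval lay between -1 and 1, a doubling or halving, for 9 of the 10 members and for 44.6% of all genes. The exception was Sirt1, whose interval reached 1.17. All genes include some with fewer reads than any member, such as Nmrk2 with 0 to 64 reads in a library. No set of genes matched to the members for level was compared, so these 2 contrasts with all genes may reflect level.

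**Figure D1:**
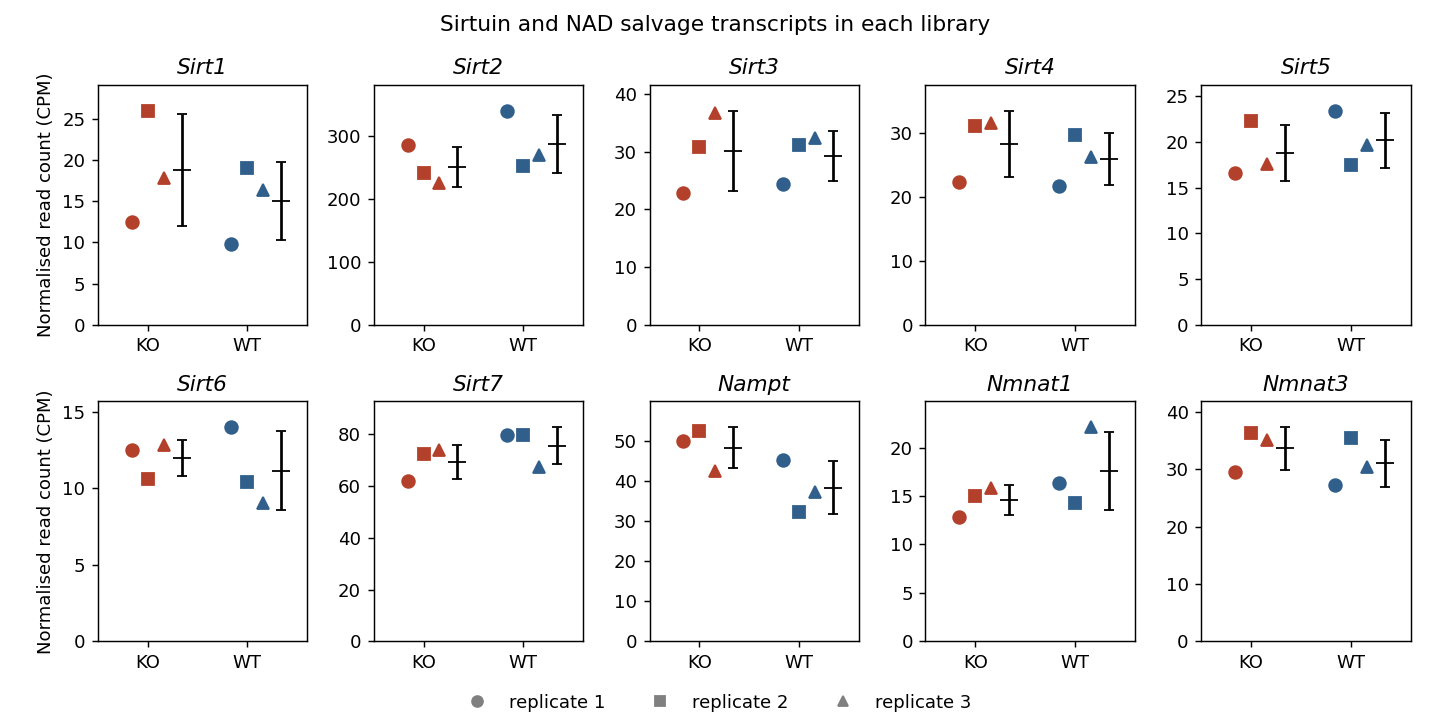
Normalised read counts (CPM after TMM scaling, linear axis from 0) of the 10 genes in the 3 KO and 3 WT libraries, each point a library, with the mean and SD (n = 3) beside the points. KO and WT points overlap for every gene, and Nampt comes closest to separation, with KO replicate 3 at 42.6 CPM below WT replicate 1 at 45.4 CPM.

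Nampt (ENSMUSG00000020572.8, GRCm38 chromosome 12 from 32819545 to 32853349, plus strand) had the smallest p of the set. It was at 50.0, 52.5 and 42.6 CPM in KO replicates 1 to 3, against 45.4, 32.3 and 37.3 CPM in WT replicates 1 to 3. The 2 highest libraries were KO and the 2 lowest WT, but WT replicate 1 lay above KO replicate 3. Means were 48.4 ± 5.17 CPM in KO and 38.3 ± 6.64 CPM in WT (SD, n = 3 each), with a log2 fold change of 0.33 (SE 0.18, 95% interval -0.10 to 0.77). The unadjusted p was 0.110 and the adjusted p 1.000 in edgeR. An absolute log2 fold change at least as large was found in 33.8% of all genes. The estimate moved to 0.22 without the library labelled WT replicate 2 and to 0.48 without WT replicate 1, where the unadjusted p was 0.0408 and the adjusted p again 1.000.

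Clock genes are given beside Nampt, and they were chosen with earlier results of these libraries known. A gap between KO and WT in them is thus not an independent finding. Arntl, the activator that pairs with Clock on E-boxes, was at 1.69, 15.3 and 15.2 CPM in KO replicates 1 to 3, against 43.8, 20.9 and 66.8 CPM in WT replicates 1 to 3. KO libraries were all lower, and 3.12% of all genes had KO wholly below WT. Its log2 fold change of -2.03 (SE 0.80) had an unadjusted p of 0.0382 and an adjusted p of 1.000 in edgeR. In DESeq2 the unadjusted p was 0.0025 and the adjusted p 0.691. Dbp, an output factor of the clock, was at 120, 120 and 61.0 CPM in KO, against 67.0, 51.7 and 9.11 CPM in WT, and the groups overlapped. Whether the phase of the clock or the hour of collection bears on Nampt was not tested.

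Nmnat1 and Nmnat3, which form NAD itself, had log2 fold changes of opposite sign, and neither passed the test. Nmnat1, which makes NAD in the nucleus, was at 12.9, 15.0 and 15.9 CPM in KO, against 16.4, 14.3 and 22.1 CPM in WT, with WT replicate 3 the highest library. On the log2 scale KO minus WT was -0.27 (SE 0.24, 95% interval -0.84 to 0.29) and moved to -0.08 without WT replicate 3. Nmnat3, the mitochondrial form, was at 29.4, 36.4 and 35.1 CPM in KO, against 27.3, 35.4 and 30.3 CPM in WT. The groups overlapped, and its log2 fold change was 0.12 (SE 0.18, 95% interval -0.30 to 0.54), with 0.03 when WT replicate 1 was left out and 0.22 when the library labelled WT replicate 2 was. Per kilobase of merged exon, the ratio of the Nmnat3 to the Nmnat1 level was 1.39, 1.47 and 1.34 in KO libraries and 1.01, 1.50 and 0.832 in WT libraries. That ratio does not depend on scaling between libraries, and the highest value was in the library labelled WT replicate 2. The ratio of Nampt to Nmnat1 was 2.33, 2.10 and 1.61 in KO libraries and 1.66, 1.35 and 1.01 in WT libraries, again with an overlap, since WT replicate 1 lay above KO replicate 3. Nmnat2, the cytosolic and Golgi form and not one of the 10, stood at 10.6, 3.47 and 3.68 CPM in KO and 12.7, 4.49 and 2.97 CPM in WT, high in replicate 1 of each genotype.

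Among the nuclear sirtuins, Sirt1, which deacetylates histones, FOXO factors and PGC-1alpha, varied most. The gene (ENSMUSG00000020063.16) lies on chromosome 10 from 63319005 to 63381704, on the minus strand, and Sirt6 lies on the same chromosome from 81621785 to 81627797. It was at 12.5, 26.0 and 17.9 CPM in KO, against 9.76, 19.0 and 16.4 CPM in WT, and KO replicate 2 was 2.67 times the lowest library, WT replicate 1. edgeR estimated a log2 fold change of 0.32 (SE 0.36, 95% interval -0.53 to 1.17), and it came to 0.00 without KO replicate 2. The coefficient of variation within a genotype was 36.2% in KO and 31.7% in WT. Sirt6, a chromatin deacetylase of histone H3 with roles in DNA repair, was at 12.5, 10.6 and 12.8 CPM in KO, against 14.0, 10.4 and 9.01 CPM in WT, so that the WT libraries held both the highest and the lowest value. The estimate of 0.10 (SE 0.26) turned to -0.03 without WT replicate 3. Sirt7, the nucleolar sirtuin that promotes ribosomal RNA synthesis, had the smallest ratio of highest to lowest library, at 62.0, 72.4 and 74.0 CPM in KO, against 79.8, 79.6 and 67.3 CPM in WT. Its log2 fold change was -0.12 (SE 0.14, 95% interval -0.46 to 0.22), the narrowest interval of the set. A doubling or halving is outside that interval. The estimate moved to -0.05 without KO replicate 1 and to -0.20 without WT replicate 3.

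Sirt2 (ENSMUSG00000015149.14, chromosome 7 from 28766735 to 28788661, plus strand), a mostly cytosolic deacetylase of tubulin and other proteins, was at 286, 241 and 225 CPM in KO, against 340, 251 and 269 CPM in WT. KO replicates 2 and 3 were the 2 lowest libraries and WT replicate 1 the highest, still with an overlap between the groups. KO minus WT came to -0.19 on the log2 scale (SE 0.17, 95% interval -0.59 to 0.20) and moved to -0.05 without WT replicate 1.

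The mitochondrial sirtuins, which share an organelle with OPA1, had log2 fold changes of both signs, none of which passed the test. Sirt3, the main deacetylase of the matrix, was at 22.9, 30.8 and 36.8 CPM in KO, against 24.4, 31.1 and 32.5 CPM in WT, and KO libraries held both the lowest and the highest value. Its estimated log2 fold change of 0.04 (SE 0.23, 95% interval -0.50 to 0.58) turned to -0.13 without KO replicate 3 and to -0.08 without WT replicate 1. Sirt3 lies on chromosome 7 from 140863666 to 140882309, on the minus strand. Its merged exons (5973 bases) share 418 bases with Ric8a and 342 with Psmd13, both on the other strand, and since the strand setting of the counting is not given in the sources used here, reads there may be lost or assigned to either gene. Sirt4, which acts on glutamate dehydrogenase and lipoylated enzymes, was at 22.3, 31.2 and 31.5 CPM in KO, against 21.7, 29.8 and 26.3 CPM in WT, with a log2 fold change of 0.13 (SE 0.21) that moved to 0.02 without WT replicate 1. Sirt5, which removes succinyl, malonyl and glutaryl groups, was at 16.5, 22.3 and 17.5 CPM in KO, against 23.4, 17.5 and 19.7 CPM in WT. The estimate of -0.10 (SE 0.22) turned to 0.02 without WT replicate 1. Summed per kilobase of merged exon, the 3 mitochondrial sirtuins came to 19.9 ± 3.55 CPM per kb in KO and 19.0 ± 1.82 CPM per kb in WT (SD, n = 3 each), and the nuclear Sirt1, Sirt6 and Sirt7 to 21.3 ± 2.14 CPM per kb in KO and 21.5 ± 1.86 CPM per kb in WT (SD, n = 3 each).

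**Figure D2:**
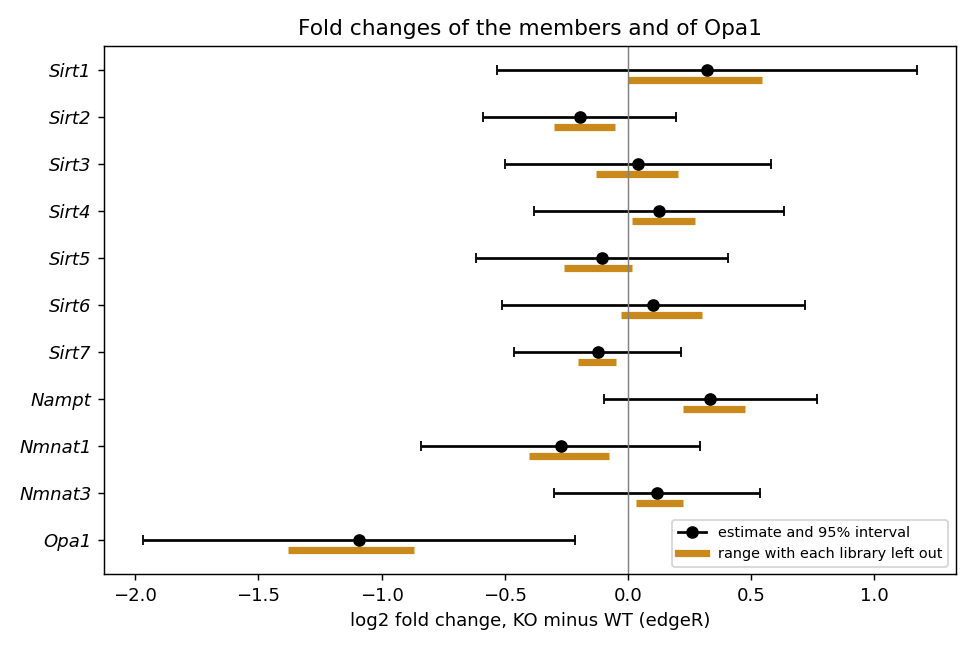
Log2 fold changes, KO minus WT, of the 10 genes and Opa1 from edgeR, with 95% intervals (black) and the range of the estimate when each of the 6 libraries was left out in turn (orange). Every member's interval includes 0, and the leave-one-out range crosses 0 for Sirt3, Sirt5 and Sirt6, while Opa1 lies between -1.97 and -0.22.

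Levels per kilobase of merged exon gave the order of the transcripts over the 6 libraries. Sirt2 led at 53.4 ± 8.11 CPM per kb (SD, n = 6), 3.79 times Sirt7, and was the only member whose range was clear of its neighbour's. Sirt7 followed at 14.1 ± 1.36 CPM per kb and Sirt4 at 11.3 ± 1.82 CPM per kb. Their ranges overlapped, though Sirt7 was above Sirt4 in 6 of 6 libraries. Nampt stood at 8.58 ± 1.51 CPM per kb, Nmnat3 at 6.46 ± 0.755 CPM per kb and Nmnat1 at 5.30 ± 1.05 CPM per kb. Nampt was above Nmnat3, and Nmnat3 above Nmnat1, in 5 of 6 libraries each. Sirt3 was at 4.98 ± 0.874 CPM per kb, above Nmnat1 in 3 of 6 libraries, so these neighbours did not differ beyond their spread. Sirt6 (4.15 ± 0.662 CPM per kb), Sirt5 (3.20 ± 0.463 CPM per kb) and Sirt1 (3.18 ± 1.06 CPM per kb) came last, and Sirt5 was above Sirt1 in 3 of 6 libraries. Merged exons include those of rare isoforms, so a level per kilobase is approximate.

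As a share of the summed sirtuin level per kilobase, Sirt2 made up 62.1%, 51.8% and 50.1% in KO libraries and 63.2%, 53.6% and 57.8% in WT libraries. Sirt7 made up 14.8 ± 1.52% in KO and 15.1 ± 1.33% in WT, and Sirt4 13.0 ± 2.46% in KO and 11.2 ± 2.48% in WT (SD, n = 3 each). Sirt1 made up 2.56%, 5.28% and 3.76% in KO libraries and 1.71%, 3.83% and 3.32% in WT libraries. Replicate 1 of each genotype had the largest Sirt2 share and the smallest Sirt1 and Sirt4 shares of its genotype, and the genotypes overlapped for each of these shares.

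**Figure D3:**
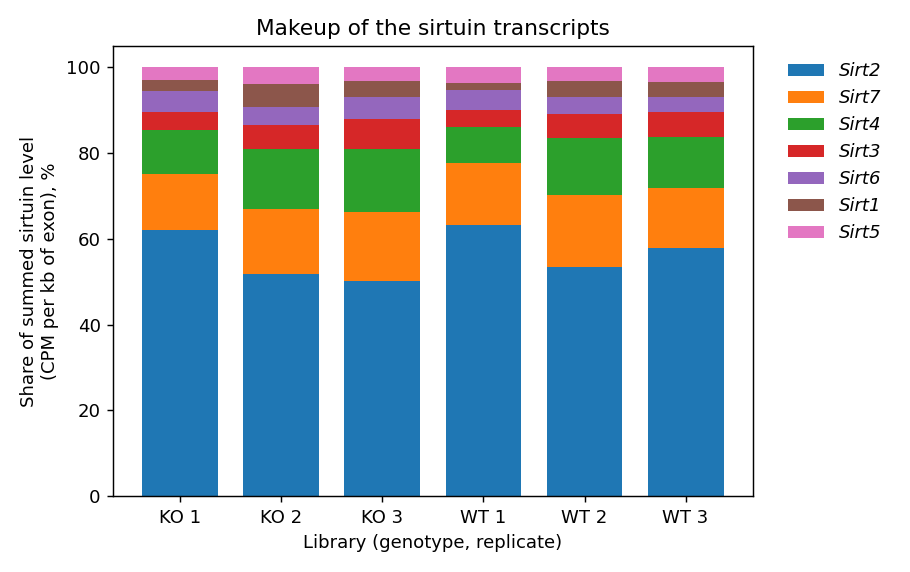
Share of each sirtuin in the summed sirtuin level per kilobase of merged exon (stacked bars, percent) in the 3 KO and 3 WT libraries. Sirt2 makes up between 50.1% and 63.2% of the sum, with the 2 largest shares in KO replicate 1 and WT replicate 1.

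Several members varied across genotype rather than with it. Mki67, which is made in dividing cells, stood at 78.6, 3.18 and 0.652 CPM in KO replicates 1 to 3, against 34.3, 1.59 and 38.1 CPM in WT replicates 1 to 3. Sirt2 was highest in the same 3 libraries, KO replicate 1 and WT replicates 1 and 3. Sirt1, Sirt4 and Nmnat3 were lowest in exactly those 3. Of all genes, 10.8% had these libraries as their 3 highest and 9.81% as their 3 lowest, or 20.6% together, and of the members 4 of 10 did, a pattern chosen after the values were seen and given without a test. The share of reads without a feature was 11.6%, 15.5% and 17.0% in KO and 11.2%, 16.3% and 14.6% in WT, and so was also lowest in KO replicate 1 and WT replicates 1 and 3. Ddx3y, a Y-linked gene, was almost absent from KO replicate 1 (0.141 CPM) and WT replicate 1 (0.0354 CPM) alone. Whether cycling cells, the sex of the mice or the makeup of the reads bears on these members was not tested. Nampt did not follow the order of Mki67, with WT replicate 3 among its lowest libraries and KO replicate 2 its highest.

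**Figure D4:**
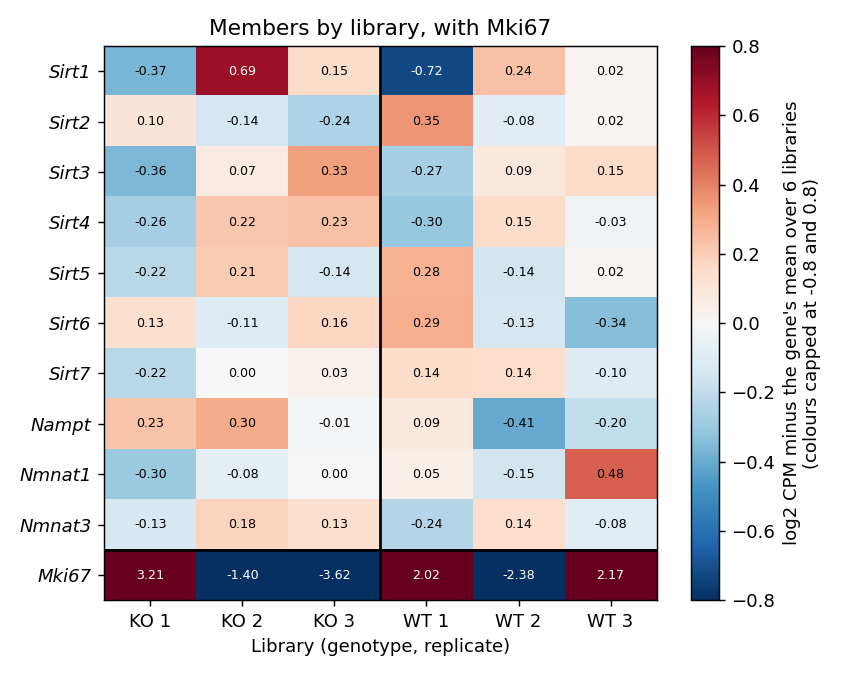
Log2 CPM of each gene minus its mean over the 6 libraries, for the 10 genes and Mki67, with KO libraries left of the black line and colours capped at -0.8 and 0.8. Sirt1 ranges from -0.72 in WT replicate 1 to 0.69 in KO replicate 2, and Sirt2 is positive in the 3 libraries where Mki67 is positive.

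The genes most like Nampt and Sirt1 over the 6 libraries were sought among 8251 genes whose log2 CPM averaged 4 or more, by the root mean square difference of log2 CPM centred on each gene's mean. For Nampt these were Arhgef40 (difference 0.06), Yeats2 (0.07) and Snrk (0.07). For Sirt1 they were Prex2 (0.09), Fnip1 (0.10) and Fbxo31 (0.12). Fnip1, for example, was at 86.0, 194 and 150 CPM in KO and 66.3, 142 and 128 CPM in WT. What closeness 6 libraries and this many genes give by chance was not tested.

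Other genes that make or recycle NAD were read from the same fit. Of 24 such genes 18 passed the filter and 0 were called by edgeR or DESeq2, with 7 positive and 11 negative log2 fold changes and a median of -0.11. Nadsyn1, the glutamine-dependent NAD synthetase of the de novo and Preiss-Handler routes, was at 10.3, 22.9 and 13.3 CPM in KO, against 9.51, 10.3 and 10.3 CPM in WT. KO libraries were all higher, though KO replicate 1 was at 10.34 CPM and the library labelled WT replicate 2 at 10.33 CPM, and 3.43% of all genes had KO wholly above WT. Its log2 fold change was 0.63 (SE 0.33) with an unadjusted p of 0.0997. Pnp, the purine nucleoside phosphorylase that frees nicotinamide from its riboside, was at 41.7, 129 and 118 CPM in KO, against 39.4, 78.0 and 69.1 CPM in WT, low in replicate 1 of each genotype. Nt5e, the surface nucleotidase CD73, had a log2 fold change of -0.63 (SE 0.42). Nadk, which makes NADP, and Slc25a51, the mitochondrial NAD carrier, had the highest mean CPM of the list over all 6 libraries, at 102 ± 13.0 and 88.6 ± 6.97 CPM in KO and 110 ± 12.0 and 84.8 ± 2.84 CPM in WT (SD, n = 3 each). Among the KO libraries alone Pnp averaged more than Slc25a51, at 96.1 CPM. The 6 genes that did not pass the filter were Qprt, Haao, Kynu, Ido2, Acmsd and Slc22a13, while Kmo, Kyat1, Kyat3, Afmid, Ido1 and Tdo2 of the kynurenine pathway passed it.

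Genes that spend or dispose of NAD or its products numbered 26, of which 23 passed the filter and 0 were called, with 17 positive and 6 negative log2 fold changes and a median of 0.07. Over all genes tested 51% had a positive log2 fold change. Nnmt, which methylates nicotinamide and so removes it from salvage, was at 5.72, 3.33 and 4.26 CPM in KO, against 4.17, 13.1 and 9.07 CPM in WT. The groups overlapped, and its log2 fold change of -0.98 (SE 0.47) had an unadjusted p of 0.0767 in edgeR and of 0.0447 in DESeq2, with an adjusted p of 1.000 in each. Parg, the glycohydrolase that degrades poly(ADP-ribose), was at 27.1, 27.4 and 27.5 CPM in KO, against 18.8, 22.8 and 24.4 CPM in WT. KO libraries were all higher, and its log2 fold change of 0.31 (SE 0.17) had an unadjusted p of 0.114. Art3, of the ecto-ADP-ribosyltransferase family, was also higher in every KO library, at 57.9, 57.2 and 63.4 CPM in KO and 44.3, 53.4 and 48.5 CPM in WT, with a log2 fold change of 0.29 (SE 0.14) and an unadjusted p of 0.0806. Parg and Art3 were the 2 of these 23 genes with KO wholly above WT, and 0 had KO wholly below. Over all genes 3.43% had KO wholly above WT and 3.12% wholly below. Parp2 and Parp3, of the PARP family, were the most abundant of the list, at 118 ± 6.64 and 115 ± 8.30 CPM in KO and 116 ± 6.80 and 92.4 ± 21.5 CPM in WT (SD, n = 3 each).

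Known partners and substrates of sirtuins numbered 24, of which 23 passed the filter and 0 were called, with 13 positive and 10 negative log2 fold changes and a median of 0.01. Acadl, a long-chain acyl-CoA dehydrogenase deacetylated by SIRT3, had a log2 fold change of -0.33 (SE 0.21), at 80.1, 55.7 and 94.3 CPM in KO and 87.0, 97.1 and 104 CPM in WT. Hif1a, a hypoxia factor, had 0.30 (SE 0.21) and Suv39h1, a histone methyltransferase deacetylated by SIRT1, 0.29 (SE 0.20). Sdha and Ldha were the most abundant. Sdha was at 485 ± 26.9 CPM in KO and 483 ± 19.2 CPM in WT, and Ldha at 427 ± 171 CPM in KO and 369 ± 97.1 CPM in WT (SD, n = 3 each). Cps1 had no read in any library.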

How the data were processed

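Raw counts per gene are as the authors deposited them, in a file for each library. Tools named in the submitters' processing notes include Trim Galore 0.5.0, cutadapt 2.5, STAR 2.6.0c and HTSeq 0.6.1p2, on GRCm38. The annotation release is not given in the sources used here. Library sizes and tests do not use the 5 summary rows, among them reads without a feature (11.2% to 17.0%) and ambiguous reads (1.21% to 1.42%). Symbols and merged exon lengths came from GENCODE M21 (GRCm38), which matched 49399 of 49652 genes.

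KO was compared with WT by edgeR 4.0.16 (R 4.3.3) with TMM scaling, the package's filter, robust quasi-likelihood and no covariate. Adjustment was by Benjamini-Hochberg over all 18832 genes, at a threshold of 0.05. CPM are after TMM scaling. A prior count of 2 was used for log2 CPM. Standard errors are the log2 fold change over the square root of F. DESeq2 1.42.0, other scaling, no filter, a replicate block, a Ddx3y covariate and leaving out each library were the alternatives. The fit was tested on simulated data, and the outcome is not given here. Nothing in the labels says that libraries came from separate animals, so p-values measure the spread between these libraries.

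The members and lists were chosen with earlier results of these data known. Named are all members, Opa1, in each other list the 3 genes with the smallest p and the 2 with the highest CPM, Arntl and Dbp, Mki67, and the 3 genes most like Nampt and Sirt1. Other genes named were chosen after their values were seen.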

Additional observations from a re-analysis of the deposited data

How the results depend on the processing

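Under all 11 alternatives, which are 5 other settings and each of the 6 libraries left out, 0 members and 0 other NAD genes were called, and Opa1 was not called. Over the whole table edgeR called 0 genes in each of its fits and DESeq2 called 20, and the cause was not tested. Of the 10 members, 7 kept their direction under all 11 alternatives, some of them by a small margin. Sirt1 came to 0.000658 without KO replicate 2, and Sirt4 and Nmnat3 to 0.02 and 0.03 without WT replicate 1. With a library left out the log2 fold change ranged from -0.13 to 0.20 for Sirt3, from -0.26 to 0.0178 for Sirt5 and from -0.0292 to 0.30 for Sirt6, so their direction depends on the libraries used, and Opa1 ranged from -1.38 to -0.87. Unadjusted p-values under 0.05 came to 393 genes, to 864 with no filter, to 593 once Ddx3y was a covariate, and to 324 to 818 on leaving out a library. The median of all genes stayed between -0.01 and 0.02. Levels of Ddx3y, a Y-linked gene, were 0.141, 22.9 and 90.2 CPM in KO and 0.0354, 226 and 23.3 CPM in WT. Those of Xist, from the inactive X, were 401, 393 and 244 CPM in KO and 355, 0.0209 and 508 CPM in WT. The library labelled WT replicate 2 was thus alone in having almost no Xist, and KO replicates 2 and 3 and WT replicate 3 had both transcripts. Sex-linked levels therefore differed between libraries of each genotype, and whether a library pooled mice of both sexes was not tested. Same-numbered libraries deviated from their group means with correlations across genes of 0.24, 0.11 and -0.07 for replicates 1 to 3. The value for replicate 1 was the largest of any KO and WT pair. The labels give no pairing beyond the number, and whether libraries were paired was not tested. With the replicate block 0 members were called, 515 genes had an unadjusted p under 0.05, and Nampt had a log2 fold change of 0.34. With the Ddx3y covariate 0 members had an unadjusted p under 0.05 in edgeR. The smallest were 0.0564 for Nampt (log2 fold change 0.34) and 0.0677 for Sirt2 (log2 fold change -0.20). KO replicate 1 correlated best with WT replicate 1 (0.957), the highest value of any 2 libraries. KO replicate 3 correlated best with WT replicate 2 (0.941), not with its own number.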
